A study of Mus musculus with 24 samples.

Results

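The genes described here encode the enzymes that write, copy and oxidise DNA methylation: the methyltransferases Dnmt1, Dnmt3a and Dnmt3b, their cofactors Uhrf1 and Dnmt3l, and the TET dioxygenases Tet1, Tet2 and Tet3. Members were all probes whose accession maps to 1 of these 8 symbols. Probes were matched for 6 of the 8 genes, 10 probes in all, among 16358 named genes on the array. Tet1 and Tet3 had no matched probe and are not analysed here. All 10 probes passed the filter on low signals, and 9 of them were well above background in the cells' channel on all 24 arrays; the second Tet2 probe was so on 22.

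RNA came from the mouse embryonic stem (ES) cell line R1 after infection with a lentivirus that carries a short hairpin RNA. On day 13 after infection the groups were shCdk8-1 and shCdk8-2, which target Cdk8, shMed12-1 and shMed12-2, which target Med12, and the control hairpin shNTC; on day 8 they were shCdk8-1, shCdk8-2 and shNTC. Each of the 8 groups had 3 arrays, called biological replicates in the labels, which do not tell if each came from its own infection; the p-values reflect array-to-array spread, part of which may be technical. Each array gives the log2 ratio of the cells' RNA (Cy5) to a common reference RNA pooled from mouse cell lines (Cy3), so a level below is a ratio to that pool and is not compared between probes. Cdk8 is a kinase and Med12 the subunit that activates it; both sit in a detachable module of Mediator, which connects DNA-bound transcription factors with RNA polymerase II.

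The hairpins lower their targets and do not remove them. Cdk8 differed from shNTC on the log2 scale by -0.76 (shCdk8-1) and -0.31 (shCdk8-2) at the earlier time and by -0.95 and -0.64 at the later one, and Med12 differed by -1.05 with shMed12-1 and -0.88 with shMed12-2. Med12 was called higher with shCdk8-1 and shCdk8-2 on day 8 (0.22 and 0.34) in the limma fit described below. On day 13 it was not called with them (0.09 and 0.115). Of 10 ES cell markers, 9 were measured and all 9 were above background on all 24 arrays, Pou5f1, Sox2 and Zfp42 among them. Between 48.9% and 76.1% of the spots of an array were well above background, and the lowest correlation between replicates was 0.982. On replicate 1 of shCdk8-1 on day 8 and replicate 3 of shMed12-1 on day 13, 9 spots in all lay far below their local background, distorted the fit of the background and were left out of that fit, a choice made after seeing the data; values with all spots are given beside the Dnmt3b results, whose calls against shNTC they end except with shMed12-1. No slide held both shCdk8-1 and shNTC arrays of the same day, nor both shMed12-1 and shNTC arrays of day 13. The 2 hairpins of a target shared no slide on the same day either, so all these comparisons are also between slides. Every comparison of Med12 hairpins with shNTC, and of day 13 with day 8, also differs in array position on the slide, and these cannot be told apart. In such bulk samples, fewer cells of a type and less RNA per cell cannot be told apart either.

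As background, DNA methylation in mammals is set down by the de novo enzymes Dnmt3a and Dnmt3b, which act on unmethylated CpG sites, with the help of Dnmt3l, a family member without catalytic activity that is abundant in germ cells and ES cells. Dnmt1 copies the pattern after DNA replication, and Uhrf1 brings it to hemimethylated CpG sites. TET enzymes oxidise 5-methylcytosine, which leads to its loss by dilution or by base excision repair. Mouse ES cells can grow without DNA methylation, and their short Dnmt3a isoform, Dnmt3a2, starts at an internal promoter.

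The promoters of these genes differ in their content of CpG, the substrate of these same enzymes. Sequences are the 250 bases upstream of RefSeq transcription starts (assembly GRCm38.p6), on the strand of the gene, with each CG in capitals. They are shown for Dnmt3a and Tet2, which were lower on day 13, and for Dnmt3l, which moved in opposite directions with the Cdk8 hairpins. Of the 3 listed starts of Dnmt3a, the first and the third, which lies further downstream, are given. Both of these windows, and that of Tet2, lie within the annotated span of their gene.
Dnmt3a, start 1, chr12:3806730-3806979, plus strand: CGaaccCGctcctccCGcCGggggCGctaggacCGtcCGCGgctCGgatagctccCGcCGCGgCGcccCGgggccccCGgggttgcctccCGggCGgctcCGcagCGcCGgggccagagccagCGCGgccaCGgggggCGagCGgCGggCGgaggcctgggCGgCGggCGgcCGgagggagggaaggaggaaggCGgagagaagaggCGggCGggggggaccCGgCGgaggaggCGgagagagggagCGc
Dnmt3a, start 3, chr12:3891494-3891743, plus strand: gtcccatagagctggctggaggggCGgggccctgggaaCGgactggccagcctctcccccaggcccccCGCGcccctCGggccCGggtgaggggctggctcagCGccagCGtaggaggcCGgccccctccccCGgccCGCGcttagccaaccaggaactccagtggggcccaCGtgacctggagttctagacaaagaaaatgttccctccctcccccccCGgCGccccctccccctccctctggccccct
Tet2, chr3:133544391-133544640, minus strand: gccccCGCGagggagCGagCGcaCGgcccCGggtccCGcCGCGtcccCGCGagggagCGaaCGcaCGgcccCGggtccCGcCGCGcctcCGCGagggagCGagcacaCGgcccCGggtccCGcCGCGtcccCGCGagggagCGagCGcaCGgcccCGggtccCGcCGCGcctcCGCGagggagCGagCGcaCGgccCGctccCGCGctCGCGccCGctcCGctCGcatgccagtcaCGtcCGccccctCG
Dnmt3l, start 1, chr10:78042037-78042286, plus strand: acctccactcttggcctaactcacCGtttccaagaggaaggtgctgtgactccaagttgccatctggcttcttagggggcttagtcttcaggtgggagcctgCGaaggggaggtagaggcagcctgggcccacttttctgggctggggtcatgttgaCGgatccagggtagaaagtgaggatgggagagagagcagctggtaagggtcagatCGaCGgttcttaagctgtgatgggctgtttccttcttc
The Tet2 window held 51 CG, more than 99.9% of the 32851 promoters in the table, whose median was 6. The windows of Dnmt3a held 38 at the first start and 15 at the third, more than 98.1% and 72.7% of promoters. Dnmt3l held 5, 4 and 3 at its 3 starts, and 44.4% of promoters had fewer than its first. The GC box GGGCGG, searched on both strands and itself containing a CG, was found in the windows of Tet2, of both Dnmt3a starts shown and of the second Dnmt3l start, and not in the first Dnmt3l window; 32.7% of all promoters held it. Dnmt3b had 1 listed start with 21 CG. Dnmt1 and Uhrf1, also lower on day 13, held 2, 7 and 26 CG at the 3 starts of Dnmt1 and 10 and 30 at the 2 of Uhrf1. A link between CpG content and the changes in transcripts was not tested. Methylation itself was not measured, and whether each probe reads transcripts from a given start is not known here.

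**Figure D1:**
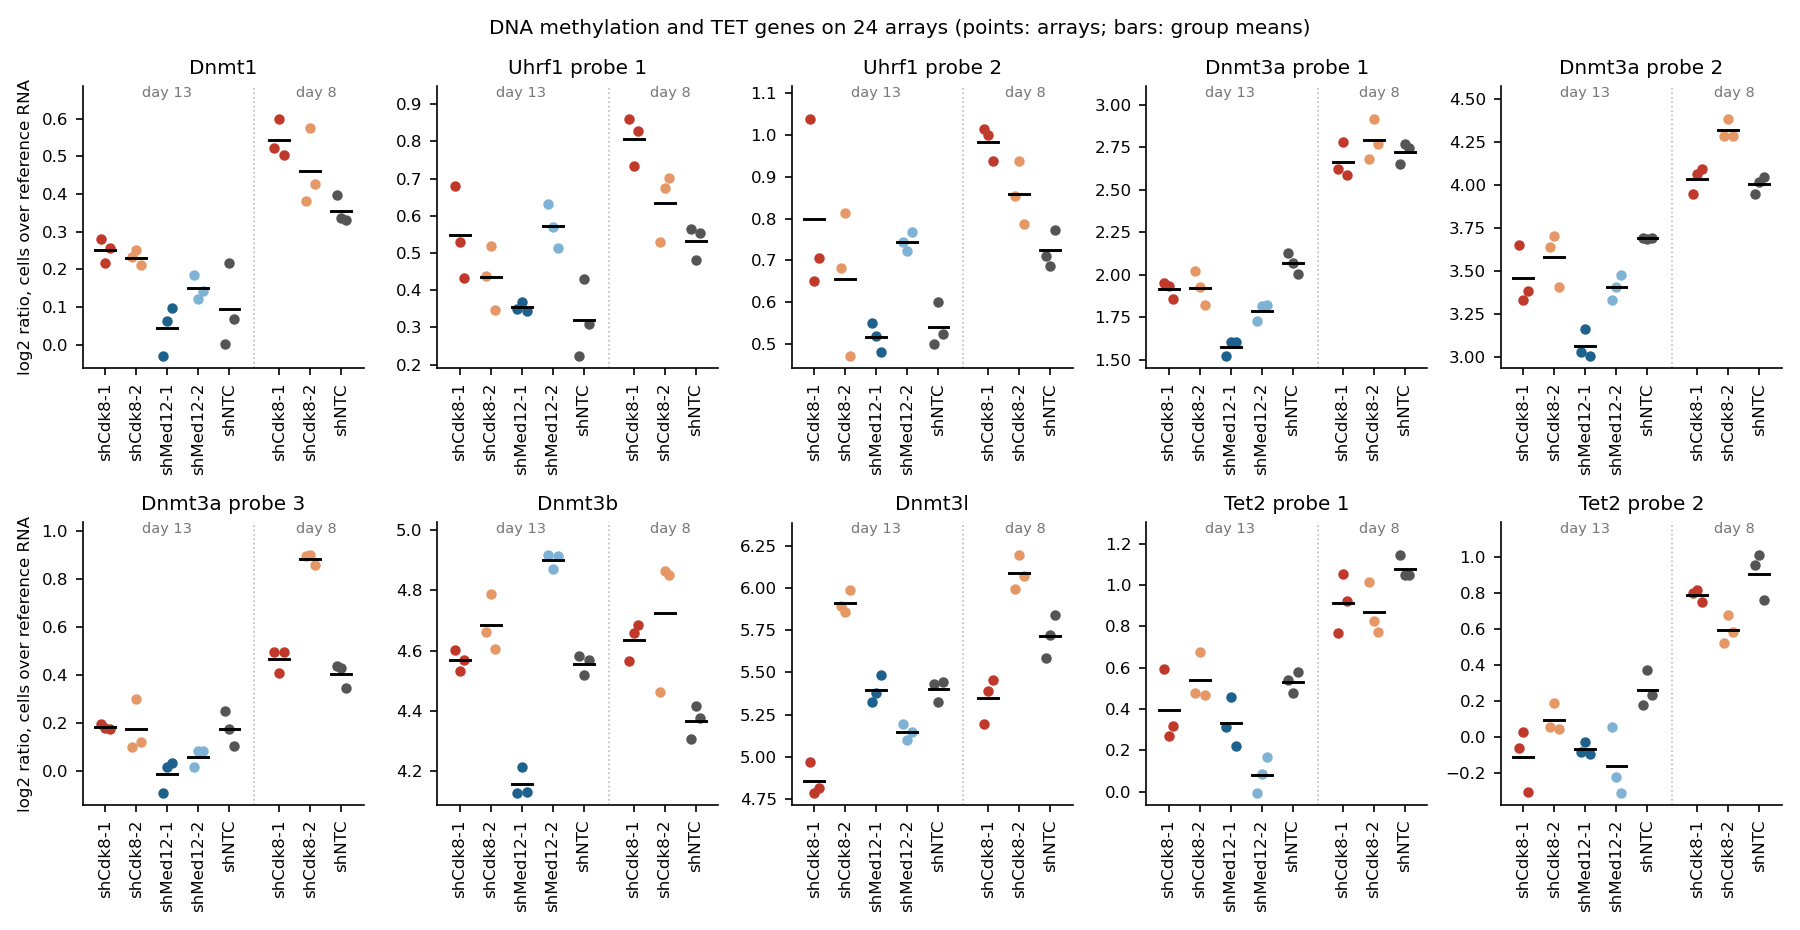
Log2 ratio of the cells' RNA to the common reference RNA (vertical axis, which differs between panels and does not start at 0) for the 10 probes; points are the 3 arrays of a group and bars the group means, with day 13 left of the dotted line and day 8 right of it. The 3 Dnmt3a probes and both Tet2 probes lie lower on day 13 than on day 8 in shCdk8-1, shCdk8-2 and shNTC cells, while Dnmt3l with shCdk8-1 lies below and with shCdk8-2 above the shNTC arrays of the same day.

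The first question was what knockdown of Cdk8 did to these genes after 8 days. A probe counted as called when its adjusted p was under 0.05 in a limma fit over all 24 arrays and 28241 probes, and a gene with a knockdown when its brightest probe was called in the same direction with both hairpins, which share the same 3 shNTC arrays. With shCdk8-1, 3 of the 6 genes were called higher (Dnmt3b, Dnmt1 and Uhrf1) and 1 lower (Dnmt3l), where 22.8% of all named genes were called in either direction. With shCdk8-2, 2 were called higher (Dnmt3b and Dnmt3l) and none lower, against a background of 22.0%. Dnmt3b was the single gene called in the same direction with both hairpins, where 8.32% of named genes were. Dnmt3l was called in opposite directions, as were 1.09% of named genes.

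Dnmt3b, a de novo methyltransferase, had log2 ratios of 4.57, 4.66 and 4.68 with shCdk8-1 and 4.46, 4.86 and 4.85 with shCdk8-2 on day 8, against 4.31, 4.42 and 4.38 in shNTC cells. All 6 knockdown arrays lay above all 3 shNTC arrays and shCdk8-2 replicate 1 was the lowest of the 6. The differences were 0.27 (SE 0.077, adjusted p = 0.0155) and 0.36 (adjusted p = 0.00206), and the mean over both hairpins was 0.31 (SE 0.067, adjusted p = 0.00188). The call with shCdk8-1 was lost without shNTC replicate 1 (0.24), shCdk8-1 replicate 2 (0.26) or shCdk8-1 replicate 3 (0.25), and with slide as a block (0.36, adjusted p = 0.116). With the background fitted on all spots the differences were 0.06 (adjusted p = 0.832) and 0.36 (adjusted p = 0.125), and with each array centred on its median, instead of loess, 0.06 and 0.37, none of them called. For the mean over both hairpins, all spots gave 0.21 (adjusted p = 0.318) and median centring 0.22 (adjusted p = 0.462), neither called. With slide as a block that mean was 0.39 and called (adjusted p = 0.0209). On the slide that held both groups, shCdk8-2 lay 0.55 above shNTC. On day 13 Dnmt3b was at 4.57 ± 0.04 with shCdk8-1 and 4.68 ± 0.09 with shCdk8-2, against 4.56 ± 0.03 in shNTC cells (SD, n = 3 each). The day 13 differences of 0.01 and 0.13 were not called, with 95% intervals of -0.15 to 0.17 and -0.03 to 0.29. The difference between the days' Cdk8 effects was -0.24 (SE 0.095, adjusted p = 0.171) and not called, but it was called without shCdk8-2 day 8 replicate 1, the lowest of the knockdown arrays (-0.31, adjusted p = 0.00726).

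Dnmt3l, the catalytically inactive cofactor of the de novo enzymes, separated the 2 Cdk8 hairpins on both days. On day 8 its log2 ratios were 5.19, 5.39 and 5.46 with shCdk8-1 and 5.99, 6.19 and 6.07 with shCdk8-2, against 5.58, 5.72 and 5.84 in shNTC cells. On day 13 they were 4.97, 4.79 and 4.82 with shCdk8-1 and 5.90, 5.86 and 5.99 with shCdk8-2, against 5.43, 5.33 and 5.45 in shNTC cells. On each day every shCdk8-1 array lay below, and every shCdk8-2 array above, every shNTC array. With shCdk8-1 it fell by 0.37 on day 8 (adjusted p = 0.00139) and by 0.54 on day 13 (adjusted p = 2.62e-05), 0.77 and 0.69 of the shNTC level on a linear scale. With shCdk8-2 it rose by 0.37 (adjusted p = 0.00149) and by 0.51 (adjusted p = 7.11e-05), each with SE 0.077. The mean over both hairpins was therefore near 0, at 0.001 on day 8 and -0.02 on day 13. The direct difference, shCdk8-1 minus shCdk8-2, was -0.74 on day 8 (adjusted p = 4.34e-07) and -1.06 on day 13 (adjusted p = 3.21e-09), and it was called under every alternative and with each replicate left out. Slide as a block gave -0.67 and -0.997 for these, and -0.26 (adjusted p = 0.118) for shCdk8-1 against shNTC on day 8. With median centring the shCdk8-2 differences were 0.36 and 0.50 and not called. The shCdk8-1 difference on day 8 was then -0.65 and called (adjusted p = 0.0225). Within the slide that held both, shCdk8-2 lay above shNTC by 0.49 on day 8 and 0.55 on day 13. For shCdk8-1 no slide held both it and shNTC on the same day. Cdk8 itself, as given above, was lower with both hairpins on both days, and the part of the knockdown's depth in the Dnmt3l difference was not tested.

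Dnmt3a, the other de novo enzyme, was measured by 3 probes. On day 8 the brightest gave -0.06 with shCdk8-1 and 0.07 with shCdk8-2, neither called. The other two gave 0.03 and 0.06 with shCdk8-1, not called, but 0.31 (adjusted p = 0.007, not called with all spots or with median centring) and 0.48 (adjusted p = 3.04e-06) with shCdk8-2. For the third probe the log2 ratios were 0.90, 0.90 and 0.86 with shCdk8-2, against 0.44, 0.43 and 0.35 in shNTC cells, without overlap, while the brightest had 2.68, 2.92 and 2.77 against 2.65, 2.77 and 2.74, which overlap. The probes of Dnmt3a thus disagreed on shCdk8-2, and which isoforms each reads was not tested. Across the 24 arrays the 3 probes correlated at 0.874 to 0.952 (Pearson's r, arrays that share slides and groups).

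Of the maintenance pair, Dnmt1 had 0.52, 0.60 and 0.50 with shCdk8-1 on day 8 and 0.38, 0.58 and 0.43 with shCdk8-2, against 0.40, 0.34 and 0.33 in shNTC cells. The shCdk8-1 arrays lay above all shNTC arrays and the shCdk8-2 arrays overlapped them. The differences were 0.19 (SE 0.059, adjusted p = 0.0271) and 0.11 (adjusted p = 0.233), and the first was lost without shNTC replicate 2 (0.18), shNTC replicate 3 (0.175) or shCdk8-1 replicate 2 (0.16) and with slide as a block (adjusted p = 0.178). That call was also lost from the Cy5 channel alone (0.10, adjusted p = 0.234) and without the filter on dim probes (adjusted p = 0.052). Using only the groups compared, or leaving out the 2 arrays with spots far below background, ended it as well. On the scanner's own log ratios and with the authors' value table the shCdk8-2 difference was 0.16 and called (adjusted p = 0.0316 and 0.0306), so that Dnmt1 was then called with both hairpins. With median centring the shCdk8-1 difference of Dnmt1 turned to -0.07. Uhrf1, which recruits Dnmt1, rose by 0.27 (SE 0.068, adjusted p = 0.0059) and by 0.26 with shCdk8-1 on its 2 probes. For its brightest probe the log2 ratios were 0.86, 0.73 and 0.83 with shCdk8-1, against 0.56, 0.48 and 0.56 in shNTC cells, and did not overlap. That call held with each replicate left out and with slide as a block (0.43, adjusted p = 0.0153), and was lost with median centring (0.03). The second probe's call was lost without shNTC replicate 1 or 2 (0.25 and 0.24) or shCdk8-1 replicate 1 or 2 (0.24 and 0.25) and with slide as a block (0.40, adjusted p = 0.0643). With shCdk8-2 the Uhrf1 differences of 0.10 and 0.14 were not called.

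On day 13 the Cdk8 hairpins gave 1 call higher (Uhrf1) and 1 lower (Dnmt3l) among the 6 genes with shCdk8-1, at a background of 20.3%, and 1 higher (Dnmt3l) with shCdk8-2, at 19.0%. None of the 6 was called in the same direction with both hairpins, where 7.65% of named genes were, and Dnmt3l was again called in opposite directions, where 0.845% were. At an unadjusted p under 0.05 in the same limma fit, Dnmt1 was higher and Dnmt3a lower with both hairpins. Dnmt1 differed by 0.15 and 0.14 (adjusted p = 0.0789 and 0.131). Without shNTC replicate 2, the highest of the 3 shNTC arrays at 0.22, Dnmt1 was called with both hairpins (0.22 and 0.20). Uhrf1 was higher by 0.23 on its brightest probe (adjusted p = 0.0234) and by 0.26 on the other with shCdk8-1, lost on the brightest without shNTC replicate 1 (0.18) or 3 (0.22) or shCdk8-1 replicate 1 (0.16) and with slide as a block (adjusted p = 0.0548). The second probe's call was lost without shNTC replicate 1 (0.24) or 3 (0.25) or shCdk8-1 replicate 1 (0.14) and with slide as a block (adjusted p = 0.194). Dnmt3a gave -0.15 and -0.14 on its brightest probe, not called. Its second probe was called lower with shCdk8-1 (-0.23, adjusted p = 0.046), a call lost in 5 of the 6 fits that leave out a replicate, with differences from -0.33 to -0.17.

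Tet2, the single TET enzyme measured, was not called on its brighter probe with either Cdk8 hairpin on either day. That probe differed by -0.17 and -0.21 at the earlier time and by -0.14 and 0.01 at the later, with 95% intervals that reach from -0.40 to 0.20 over the 4 comparisons. The day 8 difference with shCdk8-2 was called with the authors' value table (-0.34, adjusted p = 0.0489) and from the Cy5 channel alone (-0.29, adjusted p = 0.0477). Its second, dimmer probe was lower with shCdk8-2 on day 8 (-0.31, adjusted p = 0.0172) and with shCdk8-1 on day 13 (-0.38, adjusted p = 0.0053). Leaving out shNTC replicate 1 (-0.29) or 2 (-0.26) or shCdk8-2 replicate 1 (-0.28) ended the first of these calls. So did slide as a block (-0.35, adjusted p = 0.0514) and all spots (-0.31, adjusted p = 0.0602). Median centring (-0.34, adjusted p = 0.151) ended it as well. The scanner's own log ratios and the authors' value table ended it too (-0.44 each, adjusted p = 0.106 and 0.102). For the second call, median centring (-0.40, adjusted p = 0.0561) and slide as a block (-0.21, adjusted p = 0.372) did the same. The 2 probes correlated at 0.894 over the 24 arrays.

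**Figure D2:**
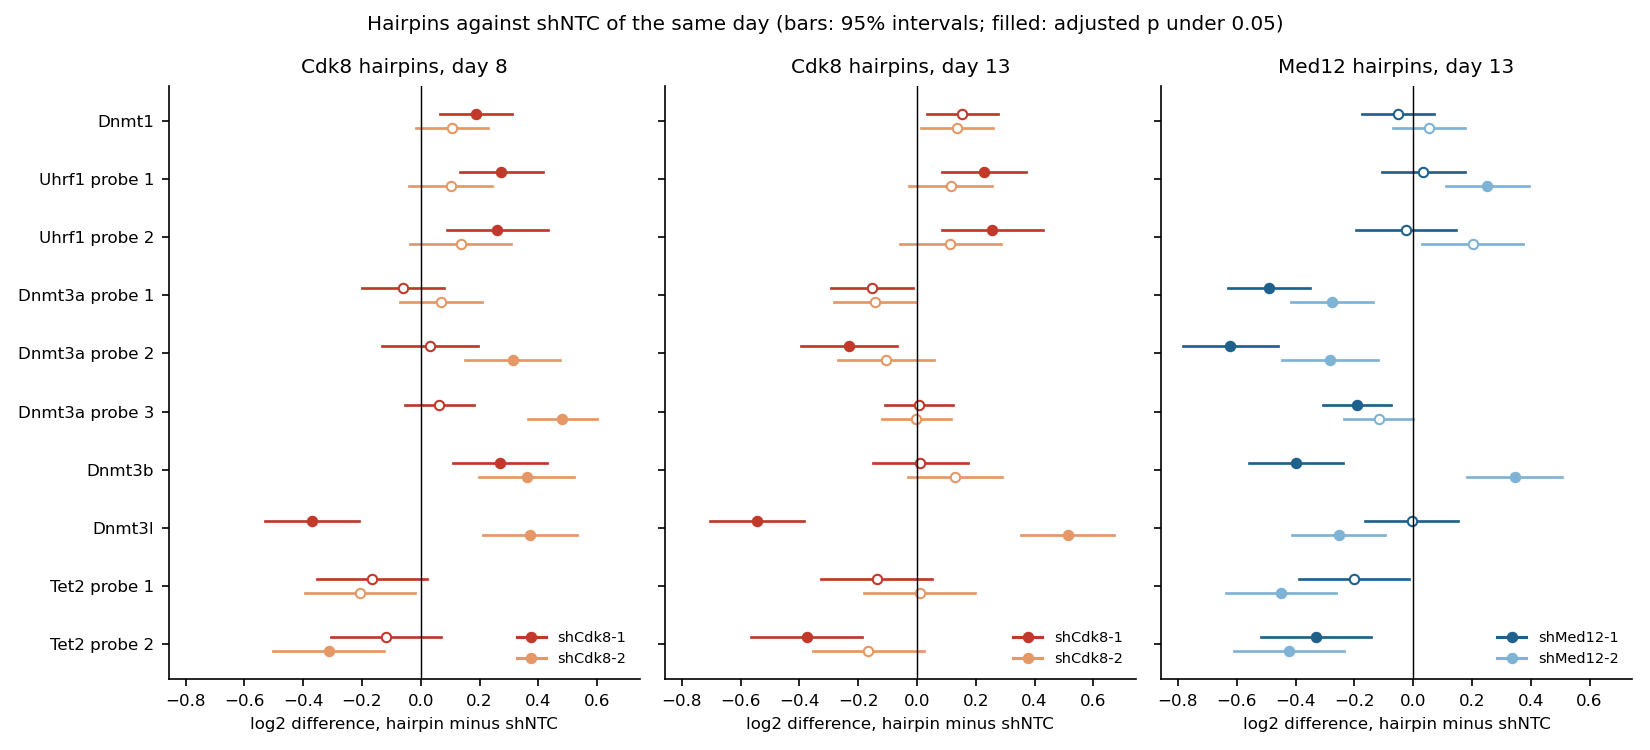
Log2 difference of each hairpin from shNTC of the same day (horizontal axis) for the 10 probes, with 95% intervals from the fit; filled points have an adjusted p under 0.05. On day 8 Dnmt3l stands at -0.37 with shCdk8-1 and 0.37 with shCdk8-2, and on day 13 Dnmt3b at -0.40 and 0.35 with the 2 Med12 hairpins, while the brightest Dnmt3a probe is below 0 with both Med12 hairpins.

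Knockdown of Med12 was examined on day 13. With shMed12-1, 2 of the 6 genes were called lower (Dnmt3a and Dnmt3b) and none higher, at a background of 31.5%. With shMed12-2, 2 were called higher (Dnmt3b and Uhrf1) and 3 lower (Dnmt3a, Tet2 and Dnmt3l), at a background of 26.9%. Dnmt3a was lower with both hairpins, where 13.0% of named genes were called in the same direction with both, and Dnmt3b was called in opposite directions, where 1.76% were.

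Dnmt3a had log2 ratios of 1.52, 1.60 and 1.60 with shMed12-1 and 1.73, 1.82 and 1.82 with shMed12-2 on its brightest probe, against 2.13, 2.07 and 2.00 in shNTC cells. All 6 knockdown arrays lay below all 3 shNTC arrays, and the shMed12-1 arrays below the shMed12-2 arrays. It fell by 0.49 (SE 0.067, adjusted p = 8.31e-06) and by 0.28 (adjusted p = 0.00396), with a mean of -0.38 (SE 0.058, adjusted p = 3.02e-05). The second probe fell by 0.62 and 0.28 (adjusted p = 3.05e-06 and 0.011), and the call with shMed12-2 was lost without shMed12-2 replicate 1 (-0.25). That call was also lost with all spots (-0.28, adjusted p = 0.306), with median centring (-0.39, adjusted p = 0.192) and from the Cy5 channel alone (-0.17, adjusted p = 0.112). The third fell by 0.19 with shMed12-1 (adjusted p = 0.0144) and differed by -0.12 with shMed12-2 (adjusted p = 0.153), so the probes shared the direction and not the size. The fall on the third probe was lost without shNTC replicate 1 or shMed12-1 replicate 1 (-0.15 each) and with slide as a block (-0.13). With slide as a block the brightest probe gave -0.56 and -0.29 (adjusted p = 0.00586 and 0.0183), and on the 2 slides that held both groups shMed12-2 lay below shNTC by 0.34 and 0.19. With median centring the shMed12-2 difference was -0.43 and no longer called (adjusted p = 0.144).

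Dnmt3b had 4.13, 4.21 and 4.13 with shMed12-1 and 4.92, 4.87 and 4.92 with shMed12-2, against 4.58, 4.52 and 4.57 in shNTC cells. Each hairpin's arrays lay wholly outside the shNTC range, on opposite sides of it. With shMed12-1 it fell by 0.40 (SE 0.077, adjusted p = 0.000465) and with shMed12-2 it rose by 0.35 (adjusted p = 0.00207). The difference of shMed12-1 from shMed12-2 was -0.74 (adjusted p = 2.15e-07), and it was called under every alternative and with each replicate left out. The fall with shMed12-1 shared no slide with shNTC and was -0.32 with slide as a block (adjusted p = 0.146), whereas shMed12-2 lay above shNTC by 0.40 and 0.30 on the 2 slides that held both. With the background fitted on all spots the shMed12-2 difference was 0.35 and not called (adjusted p = 0.132), and with median centring neither hairpin's was (-0.43 and 0.27). The groups from highest to lowest for Dnmt3b were shMed12-2 on day 13, shCdk8-2 on day 8, shCdk8-2 on day 13, shCdk8-1 on day 8, shCdk8-1 on day 13, shNTC on day 13, shNTC on day 8 and shMed12-1 on day 13. Only the first, the sixth and the seventh of these steps were between groups whose arrays did not overlap.

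Tet2 fell by 0.45 with shMed12-2 (SE 0.09, adjusted p = 0.000771) on its brighter probe, to -0.01, 0.09 and 0.17, against 0.54, 0.48 and 0.58 in shNTC cells. With shMed12-1 it was at 0.31, 0.46 and 0.22, also below every shNTC array, and the difference of -0.20 was not called (adjusted p = 0.11). It was called on the scanner's own log ratios (-0.33, adjusted p = 0.0411), with the authors' value table (-0.33, adjusted p = 0.0394) and from the Cy5 channel alone (-0.32, adjusted p = 0.0224). The second probe was lower with both, by 0.33 (adjusted p = 0.00868) and 0.42 (adjusted p = 0.00139), the first of which was lost without shNTC replicate 2 (-0.27) and with slide as a block (-0.16, adjusted p = 0.523). Slide as a block gave -0.49 for shMed12-2 on the brighter probe, and the 2 shared slides gave -0.48 and -0.49. Over both hairpins the brighter probe differed by -0.33 (adjusted p = 0.0035), and on such means 2 of the 6 genes, Dnmt3a and Tet2, were called, both lower, where 29.5% of named genes were called. On the scanner's own log ratios the Tet2 differences with shMed12-2 were larger, -0.69 on the brighter probe and -1.05 on the other. On the dimmer probe they were also larger with shMed12-1 (-0.70) and with shCdk8-1 on day 13 (-0.74).

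Dnmt3l was at 5.32, 5.38 and 5.49 with shMed12-1 and 5.19, 5.10 and 5.15 with shMed12-2, against 5.43, 5.33 and 5.45 in shNTC cells. The shMed12-1 arrays overlapped shNTC (-0.01, 95% interval -0.16 to 0.15) and the shMed12-2 arrays lay below it (-0.25, adjusted p = 0.0193). That call was lost without shNTC replicate 1 (-0.24), shNTC replicate 3 (-0.23) or shMed12-2 replicate 2 (-0.23). It was also lost on the scanner's own log ratios (-0.21, adjusted p = 0.0972), with the authors' value table (-0.21, adjusted p = 0.0952), with all spots (-0.25, adjusted p = 0.111) and with median centring (-0.39, adjusted p = 0.227). Uhrf1 was higher with shMed12-2 by 0.25 on its brightest probe (adjusted p = 0.00917), lost without shNTC replicate 1 (0.20), and by 0.20 on the other (adjusted p = 0.0865). Dnmt1 was not called with either Med12 hairpin, at -0.05 and 0.06, although the Cy5 channel alone gave -0.26 with shMed12-1 (adjusted p = 0.0027). The 2 Med12 hairpins differed from each other in 5 of the 6 genes, Dnmt1 being the exception, where 29.4% of named genes differed; from the Cy5 channel alone Dnmt1 differed too (-0.23, adjusted p = 0.00608). Apart from Dnmt3b, the differences that were called ran from -0.22 for Uhrf1 and -0.21 for Dnmt3a to 0.25 for Dnmt3l and Tet2 (adjusted p between 0.0207 and 0.0478), and each was lost with some replicate left out. For Uhrf1 these were shMed12-1 replicates 1 and 3 and shMed12-2 replicates 1 and 2 (-0.22 to -0.19), and for Dnmt3a shMed12-1 replicate 1 and shMed12-2 replicates 2 and 3 (-0.20 to -0.19). For Dnmt3l they were shMed12-1 replicate 3 and shMed12-2 replicates 2 and 3 (0.20 to 0.25), and for Tet2 replicates 1 and 2 of either hairpin (0.19 to 0.26). With slide as a block Uhrf1 (-0.06, adjusted p = 0.765) and Dnmt3a (-0.27, adjusted p = 0.143) were not called, and with all spots Dnmt3l (0.17) and Tet2 (0.22) were not. Between the 2 Cdk8 hairpins, 1 of the 6 genes (Dnmt3l) differed on each day, where 25.5% and 19.2% of named genes did. Without shCdk8-2 day 8 replicate 1, Dnmt3b differed on day 8 as well (-0.22, adjusted p = 0.00955).

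Set directly against Cdk8 knockdown on day 13, Med12 knockdown had lower Dnmt3a (-0.24, adjusted p = 0.000749), Tet2 (-0.26, adjusted p = 0.00448) and Dnmt1 (-0.14, adjusted p = 0.0149), where 25.8% of named genes differed in either direction. For Dnmt1 all 6 Med12 hairpin arrays, from -0.03 to 0.19, lay below all 6 Cdk8 hairpin arrays, from 0.21 to 0.28. For Dnmt3a and Tet2 the 2 sets of arrays overlapped. This comparison does not use the shNTC arrays. All 6 Med12 arrays lay at position 4 of their slides and all 6 Cdk8 arrays at position 3, so position and knockdown cannot be told apart. All 3 calls were lost with median centring, at -0.15 for Dnmt1, -0.27 for Dnmt3a and -0.26 for Tet2.

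The passage of time was compared within each hairpin. On day 13, 5 of the 6 genes were called lower than on day 8 in shCdk8-1 cells, 4 in shCdk8-2 cells and 5 in shNTC cells, and none was called higher; 12.6%, 17.3% and 10.2% of named genes were called lower in these groups, and 29.9%, 34.8% and 23.8% in either direction. Dnmt1, Uhrf1, Dnmt3a and Tet2 were lower in all 3 groups, as were 5.29% of named genes. With median centring only Dnmt3a was still called lower in all 3. The 3 comparisons use separate arrays. The median difference over the 6 genes was -0.39 in shCdk8-1 cells, -0.22 in shCdk8-2 cells and -0.29 in shNTC cells, against 0.02, 0.01 and 0.02 over all named genes.

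Among brightest probes Dnmt3a moved furthest in each of the 3 groups, with 2.13, 2.07 and 2.00 on day 13, against 2.65, 2.77 and 2.74 on day 8 in shNTC cells. It fell by 0.75 in shCdk8-1 cells, by 0.87 in shCdk8-2 cells and by 0.66 in shNTC cells (SE 0.067 each, adjusted p = 1.66e-08, 1.35e-09 and 2.15e-07), to 0.60, 0.55 and 0.63 of the day 8 level. No day 13 array overlapped a day 8 array. The second probe fell by 0.58, 0.73 and 0.31, and the third by 0.28, 0.71 and 0.23. In shCdk8-1 and shNTC cells these smaller falls depended on the processing. The second probe's calls were lost with all spots (-0.34 and -0.31, adjusted p = 0.165 and 0.24) and with median centring (-0.40 and -0.29), and the third's with median centring (-0.19 and -0.23). In shCdk8-1 cells the third was also lost on the scanner's own log ratios (-0.24, adjusted p = 0.0582) and with the authors' value table (adjusted p = 0.0563). Within the 2 slides that held both days the brightest probe differed by -0.69 and -0.92 in shCdk8-1 cells, by -0.76 and -1.10 in shCdk8-2 cells and by -0.59 and -0.77 in shNTC cells.

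Tet2 fell by 0.52 in shCdk8-1 cells, by 0.33 in shCdk8-2 cells and by 0.55 in shNTC cells on its brighter probe (adjusted p = 0.000116, 0.00683 and 0.000103), and by 0.90, 0.50 and 0.65 on the other. On the scanner's own log ratios the dimmer probe differed by -1.56, -1.09 and -1.18. In shNTC cells the brighter probe had 0.54, 0.48 and 0.58 on day 13, against 1.14, 1.05 and 1.05 on day 8. The arrays of the 2 days did not overlap in any of the 3 groups on either probe. Without shCdk8-2 day 8 replicate 1 the fall in shCdk8-2 cells on the brighter probe was 0.26 and no longer called (adjusted p = 0.0509). Median centring ended that Tet2 call too (-0.33, adjusted p = 0.113). Dnmt1 fell by 0.29, 0.23 and 0.26 in the same order of groups (adjusted p = 0.000555, 0.00419 and 0.0024), and held with each replicate left out. With median centring none of the 3 was called (-0.05, -0.18 and -0.19), and with only the groups compared that in shCdk8-2 cells was not (adjusted p = 0.0509). Uhrf1 fell by 0.26, 0.20 and 0.21 on its brightest probe (adjusted p = 0.00561, 0.027 and 0.0267), and differed by -0.19, -0.20 and -0.18 on the other, not called. The Uhrf1 call in shCdk8-2 cells was lost without day 8 replicate 2 (-0.18) or 3 (-0.17), or day 13 replicate 1 (-0.20) or 3 (-0.16). In shNTC cells it was lost without day 8 replicate 1 (-0.20) or 3 (-0.20), or day 13 replicate 1 (-0.16) or 3 (-0.21). With slide as a block Uhrf1 gave -0.31, -0.14 and -0.17, and those in shCdk8-2 and shNTC cells were not called. Median centring gave 0.009, -0.12 and -0.12, none of them called. The Uhrf1 call in shNTC cells was also lost on the scanner's own log ratios and with the authors' value table (-0.17 each, adjusted p = 0.0548 and 0.0533). That in shCdk8-2 cells was also lost with only the groups compared.

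Dnmt3l fell by 0.49 in shCdk8-1 cells (adjusted p = 3.57e-05) and by 0.31 in shNTC cells (adjusted p = 0.00444), and differed by -0.17 in shCdk8-2 cells (adjusted p = 0.0915). With median centring the shCdk8-1 and shNTC differences were -0.27 and -0.26 and not called (adjusted p = 0.302 and 0.507). Dnmt3b was the gene that did not follow: its differences of -0.07 in shCdk8-1 cells, -0.04 in shCdk8-2 cells and 0.19 in shNTC cells were not called, and in shNTC cells all day 13 arrays lay above all day 8 arrays. Without shCdk8-2 day 8 replicate 1, Dnmt3b was called lower on day 13 in shCdk8-2 cells (-0.17). The Cdk8 effect on day 13 minus that on day 8 was called for none of the 6 genes on its brightest probe, where 5.72% of named genes were. At an unadjusted p under 0.05 in the same limma fit it was so for 1 of the 6, Dnmt3b, which was called without shCdk8-2 day 8 replicate 1, as given above. Among probes it was called for the second and the third probe of Dnmt3a (-0.34 and -0.27, adjusted p = 0.046 and 0.0265) and not for the brightest (-0.15, adjusted p = 0.371), where 4.29% of all probes were called.

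**Figure D3:**
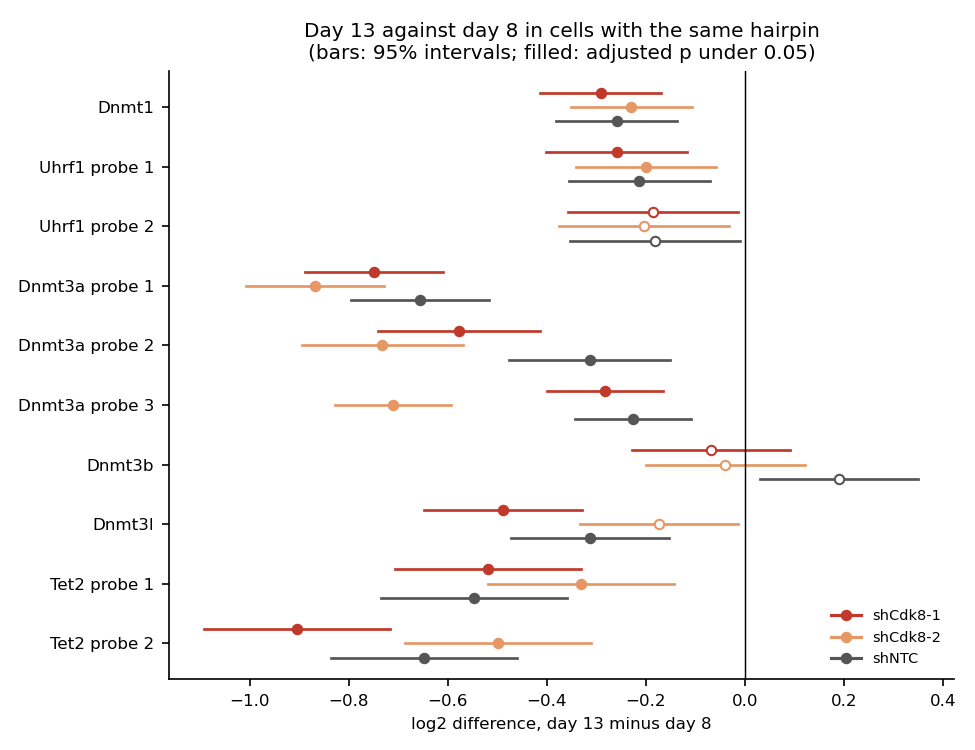
Log2 difference of day 13 from day 8 (horizontal axis) in shCdk8-1, shCdk8-2 and shNTC cells for the 10 probes, with 95% intervals; filled points have an adjusted p under 0.05. The 3 Dnmt3a and both Tet2 probes are filled and below 0 in all 3 groups, between -0.90 and -0.23, and Dnmt3b is open in all 3.

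The cell type markers of these cultures moved as well. Of 10 primitive endoderm markers, all tested, 6 were lower with both Cdk8 hairpins on day 8, 5 on day 13, and 5 with both Med12 hairpins, and 9, 5 and 9 were lower on day 13 than on day 8 in shCdk8-1, shCdk8-2 and shNTC cells, at backgrounds of 12.6%, 17.3% and 10.2% lower. In the same order of groups, 2, 1 and 4 of the 10 fibroblast or feeder markers were lower and 4, 4 and 0 higher on day 13. Of the 7 primed epiblast markers, 3, 4 and 1 were lower and 1, 2 and 2 higher, and of the 9 ES cell markers, 3, 3 and 2 were lower and 1, 0 and 0 higher. The mean log2 ratio of the primitive endoderm markers per array on day 13 was -1.22 in shCdk8-1 cells and -1.21 to -1.16 in shCdk8-2 cells. It was -1.12 to -1.09 in shMed12-1 cells, -1.29 to -1.21 in shMed12-2 cells and -0.86 to -0.77 in shNTC cells. On day 8 it was -0.31 to -0.26 in shCdk8-1 cells, -0.90 to -0.88 in shCdk8-2 cells and 0.0047 to 0.05 in shNTC cells. Gata6, Sox17 and Sox7 were lower with both hairpins in all 3 knockdowns. Of 7 tested primed epiblast markers, Fgf5 (1.02), Lef1 (0.66) and Zic2 (0.59) rose with both Cdk8 hairpins on day 8, Fgf5 (0.47) and Lef1 (0.54) on day 13, and Otx2 fell by 0.54 with both Med12 hairpins (means over both hairpins); Cer1 was not kept, being above background on 0 arrays. The mean log2 ratio of the primed markers on day 8 was 2.51 to 2.68 with shCdk8-1 and 2.44 to 2.64 with shCdk8-2, against 2.03 to 2.15 in shNTC cells. On day 13 it was 2.37 to 2.40, 2.34 to 2.53, 1.58 to 1.92 and 2.30 to 2.56 with the first and second Cdk8 and the first and second Med12 hairpin, against 2.22 in shNTC cells. The mean of the primed markers lay above every shNTC array of the same day with both Cdk8 hairpins on both days and with shMed12-2. With shMed12-1 it lay below them. Dnmt3b was placed likewise in these groups except with shCdk8-1 on day 13, where its arrays overlapped shNTC (a difference of 0.01).

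Of 9 measured ES cell markers, Tbx3 was lower with both Cdk8 hairpins on day 8, Tbx3 and Klf4 on day 13, and Klf4, Esrrb and Zfp42 with both Med12 hairpins; their mean log2 ratio on day 13 was 4.98 to 5.15 with shMed12-1 and 5.03 to 5.17 with shMed12-2, against 5.62 to 5.73 in shNTC cells. Fibroblast and feeder markers stayed far below the reference, with means between -4.69 and -3.65 on every array, and 8 of the 10 were above background on all 24 arrays. Acta2 rose by 1.93 and Vim by 0.65 with both Med12 hairpins, again as means over both. The part of these shifts in the values of the methylation genes was not tested.

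Other genes of the pathway were counted from lists of readers, TET partners, DNMT partners, methyl donor enzymes, germ line genes listed for promoter methylation and S phase genes. Each gene was called only with both hairpins in the same direction. The backgrounds are those given above: 8.32% and 7.65% for Cdk8 knockdown, days 8 and 13, and 13.0% for Med12 knockdown. Of the steps after TET oxidation, 16 genes were tested, and 3 were higher and none lower with Cdk8 knockdown on day 8, at a list median of 0.10. They were Gadd45g (0.95 and 0.28 with the 2 hairpins), Gadd45a (0.52 and 0.44), both stress-induced factors linked to active demethylation, and Ogt (0.27 and 0.24), the sugar transferase that binds TET proteins. On day 13 Gadd45a (0.46 and 0.43) and Gadd45b (0.22 and 0.41) were higher. With Med12 knockdown Gadd45b (0.90 and 0.96) and Gadd45g (0.72 and 0.25) were higher, and Xrcc1, a scaffold of base excision repair, was lower (-0.31 and -0.21).

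Of 13 tested genes of methyl donor synthesis, which supplies S-adenosylmethionine through the folate and methionine cycles, 5 were lower and none higher with Med12 knockdown, at a list median of -0.09. Among them were the mitochondrial folate enzymes Mthfd2 (-0.40 and -0.65) and Shmt2 (-0.35 and -0.34) and the cytosolic Shmt1 (-0.47 and -0.30) and Mthfd1 (-0.24 and -0.24). With Cdk8 knockdown on day 13, Shmt1, Mthfd1 and Gnmt, a methyltransferase that uses up S-adenosylmethionine, were lower. Mat2b, the regulatory subunit of the enzyme that makes S-adenosylmethionine, was higher (0.21 and 0.21). On day 8 Shmt2 (0.38 and 0.25) and Mat2b (0.31 and 0.24) were higher and none was lower.

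Among 17 tested partners and regulators of DNMTs, Ehmt2, a histone H3 lysine 9 methyltransferase also called G9a, was lower with Cdk8 knockdown on day 8 (-0.21 and -0.30), and Dppa3, a maternal factor that binds Uhrf1, was higher on day 13 (0.54 and 0.59); no other was called, and none with Med12 knockdown. Of 7 tested readers of methylated DNA, only Mbd4, a glycosylase that repairs deaminated CpG sites, was called, lower with Cdk8 knockdown on day 13 (-0.22 and -0.26) and with Med12 knockdown (-0.26 and -0.30). Of 17 germ line genes listed for promoter methylation, which was not measured here, none was called with Cdk8 knockdown on day 8. Hormad1, a meiotic chromosome axis gene, was lower with Cdk8 knockdown on day 13 (-0.40 and -0.62) and with Med12 knockdown (-0.73 and -0.45). Averaged over the 17 genes, the log2 ratio lay between 1.79 and 2.42 on every array. Between the days, 7, 10 and 6 of the 17 germ line genes were lower on day 13 in shCdk8-1, shCdk8-2 and shNTC cells, where 12.6%, 17.3% and 10.2% of named genes were, and 1, 0 and 1 higher. In the same order of groups, 2, 4 and 3 of 7 readers were lower and none higher. Of 17 DNMT partners 5, 7 and 4 were lower and 2, 2 and 1 higher. Of 13 methyl donor genes 4, 5 and 3 were lower and 1, 0 and 2 higher. Of 16 genes of steps after TET oxidation 2, 5 and 1 were lower and 4, 2 and 3 higher. For the 17 S phase genes the counts were 3, 5 and 0 lower and 0, 2 and 0 higher. Of 17 S phase replication genes, beside which the replication-coupled Dnmt1 and Uhrf1 can be read, 1 was higher (Rrm2) and 1 lower (Rfc4) with Cdk8 knockdown on day 8, Rfc4 was lower on day 13, and Rrm1 was higher and Mcm7 and Rfc4 lower with Med12 knockdown, with list medians between -0.06 and 0.01.

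**Figure D4:**
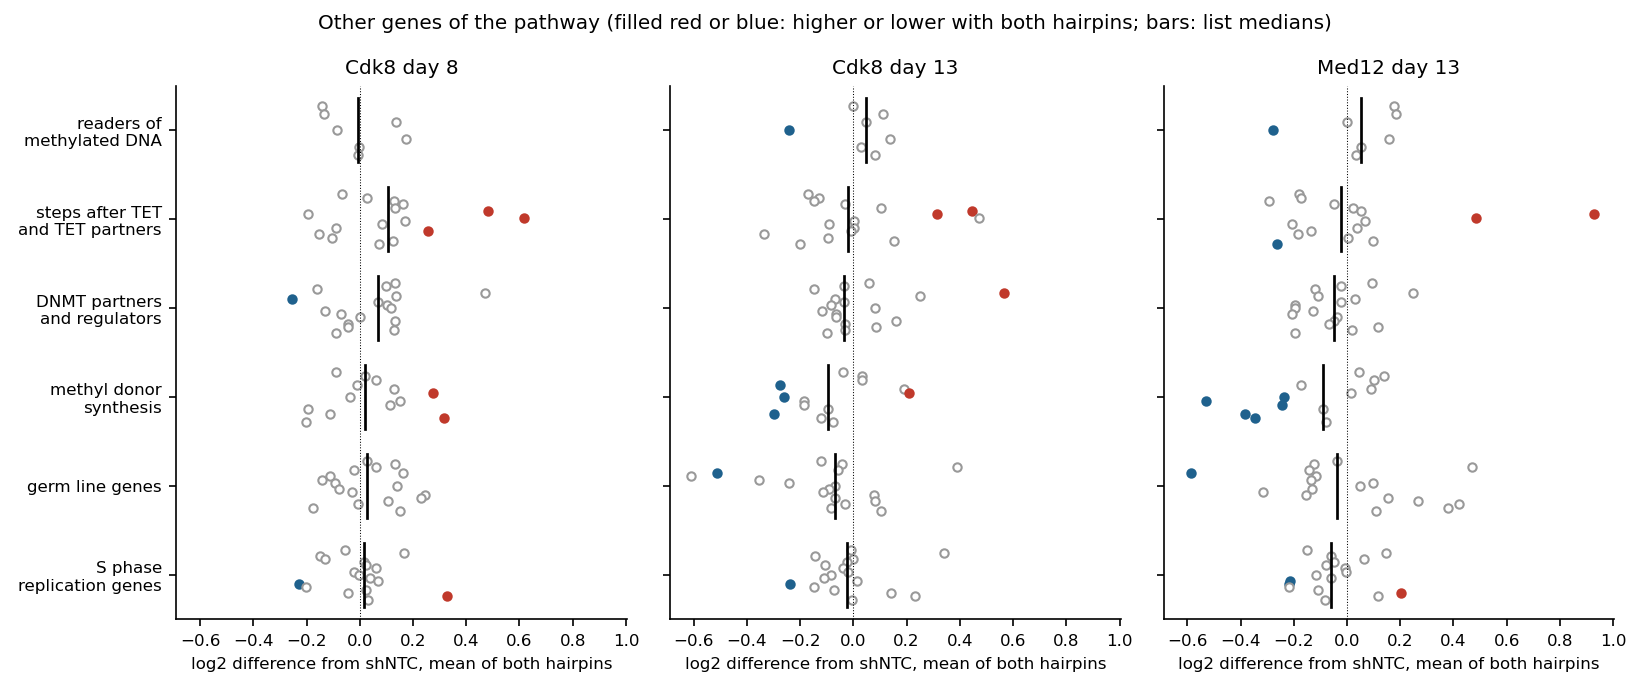
Mean log2 difference from shNTC over both hairpins (horizontal axis) for each tested gene of 6 lists in the 3 knockdowns; filled red or blue points were called higher or lower with both hairpins, open points were not, and bars are list medians. The methyl donor list holds 5 filled blue points with Med12 knockdown, and the list of steps after TET oxidation 3 filled red points with Cdk8 knockdown on day 8.

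The genes also differed in how they moved with each other across the 24 arrays, which share slides, groups and the day difference, so the correlations are descriptions. On brightest probes, Pearson's r was 0.87 between Dnmt3a and Tet2, 0.848 between Dnmt1 and Dnmt3a and 0.824 between Dnmt1 and Uhrf1. Dnmt3b had -0.17 with Tet2, 0.053 with Dnmt3l, 0.16 with Dnmt3a, 0.298 with Dnmt1 and 0.439 with Uhrf1, and Dnmt3l had -0.0146 with Uhrf1. Among 13731 other named genes, those most like Dnmt3a were Timeless (r = 0.984), a replication fork protein, Cbx1 (0.971), the heterochromatin protein HP1 beta, and Csad (0.965), an enzyme of taurine synthesis. Genes most like Tet2 included Cfap36 (0.953) and Zbtb43 (0.945). Dnmt1 was closest to Mnt (0.924), Hnrnpdl (0.914) and Cabin1 (0.909), and Uhrf1 to Lipo3 (0.849), Akap9 (0.848) and Zfp157 (0.848). Dnmt3b was closest to Timm50 (0.901), Snrpn (0.9) and Bcar3 (0.852), and Dnmt3l to Ttc39b (0.932), Scpep1 (0.911) and Zmym5 (0.897). Once the group means were taken out, r over the same arrays was 0.669 between Dnmt3a and Timeless, 0.629 with Cbx1 and -0.352 with Csad.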

How the data were processed

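Total RNA of 24 samples in 8 groups of 3 was labelled with Cy5 and hybridised, as 750 ng of cRNA, against a Cy3-labelled universal mouse reference, with no dye swap, per the labels' protocols. The deposited scanner files hold spot intensities and, per the file headers, a log10 ratio of red over green from Agilent Feature Extraction 10.7. The authors' value table holds log2 ratios that match the scanner's log ratio with a slope of 1.00; column medians ran from -0.0049 to 0.12, so columns are not centred at 0.

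Median intensities were background-corrected by normexp (offset 50), normalised by loess within each array and averaged over spots of a probe. The normexp fit left out 9 spots on 2 arrays lying more than 1000 below their local background, a departure from the fit first specified, made after seeing the data; the fit on all spots is an added alternative. Control and outlier spots were left out; 0 spots were saturated. Of 41174 probes, 22951 had a symbol, matched by accession. Probes were kept where some group had all 3 of its arrays well above background in the cells' channel, and 28241 were tested with limma 3.58.1 in R 4.3.3 (8 group means, 16 residual degrees of freedom), with Benjamini-Hochberg adjustment over all of them and calls at an adjusted p under 0.05. A gene is represented by its brightest kept probe (13732 named genes). All member probes are given, and list genes are named where called with both hairpins, at most the 4 largest per list and knockdown, and others where a count of 5 or fewer is spelled out. The 3 named genes most correlated with each member are given. Of the genes these rules name, 2 are not reported here. The members and lists were chosen with earlier results of these data known. The number of arrays limits the precision. The fit was tested on simulated data. Alternatives were the scanner's log ratio, the authors' table, other background fits, median centring, Cy5 alone, other filters, slide and replicate blocks, only the groups compared, and arrays left out. Promoter sequences are RefSeq's (GRCm38.p6).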

Additional observations from a re-analysis of the deposited data

Results flagged for a closer look

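The Cdk8 effect differed between the days, by a test of the difference itself, on 2 of the 3 Dnmt3a probes. The difference between the effect on day 13 and that on day 8 was -0.34 on the second probe (adjusted p = 0.046) and -0.27 on the third (adjusted p = 0.0265) in the limma fit. The brightest Dnmt3a probe gave -0.15 and was not called (adjusted p = 0.371). On the third probe shCdk8-2 differed from shNTC by -0.00249 on day 13 and 0.48 on day 8, and shCdk8-1 by 0.01 and 0.06. Of 12 alternatives, 7 ended the call on the second probe and 6 that on the third, among them median centring, all spots and the scanner's log ratio for both (-0.21, adjusted p = 0.396, on the third with the scanner's log ratio). The call on the second probe was also lost in 14 of 18 fits that leave out a replicate. That on the third was lost without shNTC day 8 replicate 3 (-0.24), shNTC day 13 replicate 1 (-0.23) or shNTC day 13 replicate 2 (-0.27).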

How the results depend on the processing

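The number of the 6 genes called with both Cdk8 hairpins on day 8, which was 1 (Dnmt3b), was 2 (Dnmt1 added) with the scanner's log ratio and with the authors' table, and 0 with the background fitted on all spots, median centring, slide as a block or only the groups compared; it was 0 to 1 with a replicate left out. On day 13 the count of 0 became 0 to 1 with a replicate left out. With Med12 knockdown the count of 1 (Dnmt3a) was 2 (Tet2 added) with the scanner's log ratio, the authors' table or Cy5 alone, 0 with median centring and 1 with each replicate left out. Between the days in shNTC cells the count of 5 was 2 with median centring and 4 to 5 with a replicate left out. Median centring turned 3 values: Dnmt1 with shCdk8-1 on day 8 (-0.0657), Dnmt1 over both Cdk8 hairpins on day 8 (-0.00203) and Uhrf1 between the days in shCdk8-1 cells (0.00928). The cause of these changes was not tested.

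Of 170 values per alternative, 52 lost and 0 gained a call with median centring, where the 3 that turned were not called either, 26 lost and 2 gained one with slide as a block, 19 lost and 1 gained one with all spots, and 9 lost and 7 gained one with the scanner's log ratio. Probes called over the whole array also moved: 5738 with shCdk8-1 on day 8 became 2109 with slide as a block, and with median centring 5435 with shCdk8-2 on day 8 became 641, 7486 with shMed12-1 became 2011, and 6399 between the days in shNTC cells became 1850.

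Same-numbered arrays did not pair, with correlations of their deviations from -0.068 to 0.25. With the replicate number as a block 166 of 170 values kept their direction and call, 3 lost it and 1 gained it. The calls lost were the second Dnmt3a probe with shCdk8-1 on day 13 (-0.23) and between the days' Cdk8 effects (-0.34), and Tet2 between the Med12 hairpins (0.25).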

Other observations

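The closest followers of these genes were picked by r over the same 24 arrays, which holds the deviations within groups too. Their r within groups is thus no separate test, and its background over all genes was not computed. With group means taken out, r ran from -0.352 between Dnmt3a and Csad to 0.693 between Tet2 and Cfap36. It was 0.664 between Dnmt3l and Zmym5, and 0.649 between Dnmt3b and Snrpn, an imprinted gene. It was 0.256 between Dnmt1 and Mnt and 0.0485 between Dnmt1 and Cabin1, although both stood above 0.9 over all arrays.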
